A study of Mus musculus with 8 samples.

Results

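The AP-1 and immediate early genes described here are *Fos*, *Fosb*, *Jun*, *Junb*, *Jund*, *Egr1*, *Egr3*, *Ier2*, *Atf3* and *Nr4a1*. They were taken by gene name from the deposited table, and all 10 are among its 54532 genes. Of these, 9 had enough reads to be tested and *Egr3* did not. They were measured by RNA-Seq in LSK cells, the bone marrow cells that carry SCA-1 and C-KIT but no lineage markers and include hematopoietic stem and progenitor cells (HSPCs). Cells with and without the surface adhesion protein EpCAM were sorted from C57BL/6 mice that had lost *Zeb1*, an epithelial-mesenchymal transition transcription factor, and the study asked which genes set the EpCAM+ cells apart.

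There were 4 libraries of *Zeb1*-/- EpCAM+ LSK cells and 4 of *Zeb1*-/- EpCAM- LSK cells, prepared on day 14 after treatment with pIpC had ended. pIpC is a synthetic double-stranded RNA that induces interferon and so turns on Mx1-Cre. Both fractions therefore carried the floxed *Zeb1* alleles, Mx1-Cre and the pIpC treatment, and no library here came from a control mouse. Interferon also reaches tissues other than blood, so the deletion by Mx1-Cre was not restricted to hematopoietic cells. The study's methods give 4 mice per genotype for this comparison. Neither the ages of these mice nor whether the same mice gave both fractions is stated in the sources used here. The p-values thus measure the spread between these libraries.

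AP-1 is a dimer of basic leucine zipper proteins, built from a FOS and a JUN protein or from JUN proteins alone, that binds DNA and regulates genes of proliferation, stress and differentiation. *Fos*, *Egr1*, *Ier2*, *Nr4a1* and their relatives are immediate early genes: their transcription starts within minutes of a growth factor, cytokine or stress signal without new protein synthesis, mostly through MAP kinases acting on SRF, ternary complex factors and CREB, and their mRNAs decay quickly. In HSPCs these genes respond to cytokines, and they are also known to be switched on while tissue is dissociated and cells are sorted.

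RefSeq promoters (GRCm38.p6, 250 bases before the annotated start) were found for 7 of the 10 genes, with no entry for *Egr1*, *Egr3* or *Ier2*. TGACG, the core of the cAMP response element bound by CREB and ATF proteins, was present on either strand in 5 of these 7 promoters, against 17.8% of all 32841 promoters of the same length. The last 120 bases before the start of those 5 promoters are shown because they hold this shared feature, with TGACG or its reverse complement CGTCA in capitals and each sequence written 5′ to 3′ in the direction of transcription.
*Fos* (chr12:85473770-85473889, plus strand): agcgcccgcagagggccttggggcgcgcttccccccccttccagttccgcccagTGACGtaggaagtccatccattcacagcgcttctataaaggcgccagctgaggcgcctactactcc
*Fosb* (chr7:19310046-19310165, minus strand): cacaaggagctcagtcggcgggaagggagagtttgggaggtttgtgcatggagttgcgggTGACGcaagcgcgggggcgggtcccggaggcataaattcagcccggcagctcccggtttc
*Junb* (chr8:84978749-84978868, minus strand): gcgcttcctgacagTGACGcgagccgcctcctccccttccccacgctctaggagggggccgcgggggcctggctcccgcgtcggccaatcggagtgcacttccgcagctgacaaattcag
*Atf3* (chr1:191183334-191183453, minus strand): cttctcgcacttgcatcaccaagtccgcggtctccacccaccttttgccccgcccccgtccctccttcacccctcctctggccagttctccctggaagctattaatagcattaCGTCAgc
*Nr4a1* (chr15:101266726-101266845, plus strand): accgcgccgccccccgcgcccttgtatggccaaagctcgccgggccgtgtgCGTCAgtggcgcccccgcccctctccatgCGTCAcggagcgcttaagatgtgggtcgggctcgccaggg

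The TGACG of *Fos* lay 66 to 62 bases before the start, upstream of a TATAAA at 33 to 28 bases, the only TATAAA among the 7 promoters (12.4% of all promoters). A second copy, 129 to 125 bases before the start, lies outside the stretch shown. *Nr4a1* had 4 copies, of which 2 fall in the stretch shown, and the copy of *Atf3* lay 7 to 3 bases before the start. The windows of *Nr4a1* and *Atf3* lie inside the genes' annotated spans, since these genes have further transcripts that start upstream, and the RefSeq window of *Jund* ends 1210 bases before the gene counted here, so it is not the stretch next to that gene's start. The windows of *Jun* and *Jund* held no TGACG, and CCAAT was found in *Jun* and *Junb* (33.9% of all promoters). The full 8-base palindrome TGACGTCA (1.55% of promoters), the AP-1 site TGACTCA or TGAGTCA (4.46%) and the CArG box bound by SRF (1.47%) were in none of the 7 windows. TGACG is part of TGACGTCA, so those matches are not separate. These are matches of letters in a short window and not measured binding sites.

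Each library had between 14114491 and 17073546 reads on genes, with no difference in totals between the fractions found by an exact two-sided permutation test (p = 0.114, where the smallest p possible with 4 against 4 libraries is 0.0286). *Epcam* was at 187 ± 32.7 counts-per-million (CPM, SD, n = 4) in EpCAM+ libraries and 3.86 ± 3.61 in EpCAM- libraries. *Zeb1* reads were present in all 8 libraries, at 14.8 to 23.7 CPM in EpCAM+ and 9.49 to 14.0 CPM in EpCAM- libraries, and counts per whole gene do not show whether the deleted exon was lost. *Kit* was between 155 and 328 CPM. *Ly6a*, which encodes SCA-1, was at 351, 195, 140 and 116 CPM in EpCAM+ replicates 1 to 4. In EpCAM- replicates 1 to 4 it was at 71.7, 61.3, 16.4 and 15.7 CPM. Both markers of the sort thus had reads in every library, with *Ly6a* lowest in EpCAM- replicates 3 and 4. Markers of other cells differed between the fractions and are given with the results they touch.

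All 9 tested genes had a higher CPM in the EpCAM+ library than in the EpCAM- library of the same replicate number, in all 4 numbers, as did 32% of all 13560 tested genes. Their log2 fold changes ranged from 0.73 to 3.25 with a median of 1.44, against 0.02 over all tested genes. In edgeR's quasi-likelihood test, which treats the 4 libraries of a fraction as independent and adjusts over all tested genes, 4 of the 9 were higher in EpCAM+ cells at an adjusted p under 0.05 (*Fosb*, *Jun*, *Atf3* and *Nr4a1*) and 0 were lower, as also in DESeq2 and at an unadjusted p under 0.05. In that fit 21.6% of all tested genes were higher and 20.8% lower, 42.4% in all. With the replicate number as a block, 9 of 9 were higher, against 25.5% of all tested genes higher and 25% lower (50.5% in all), and the median log2 fold change was 1.47.

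For 8 of the 9 genes, all but *Atf3*, the libraries with numbers 3 and 4 were above those with numbers 1 and 2 in both fractions. The ratio of EpCAM+ to EpCAM- within a number varied least for *Fos* (2.51 to 3.12) and most for *Atf3* (2.81 to 12.8). The count without the block also moved with single libraries. It was 1 (*Fosb*) without EpCAM- replicate 1 or without EpCAM- replicate 2, and 2 without EpCAM+ replicate 3 (*Fosb* and *Atf3*) or without EpCAM- replicate 4 (the same 2 genes). *Fosb* was called with each of the 8 libraries left out in turn, *Atf3* in 5 of these 8 fits, *Nr4a1* in 4 and *Jun* in 2. When genes with 1 count in any library were kept, which raised the number tested to 25237, all 4 calls were lost, with adjusted p from 0.0579 (*Fosb*) to 0.0896 (*Jun*). With the block the count was 9 after leaving out both libraries of any number. In sorted bulk populations, a larger share of cells with a transcript and more of it per cell cannot be told apart.

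**Figure D1:**
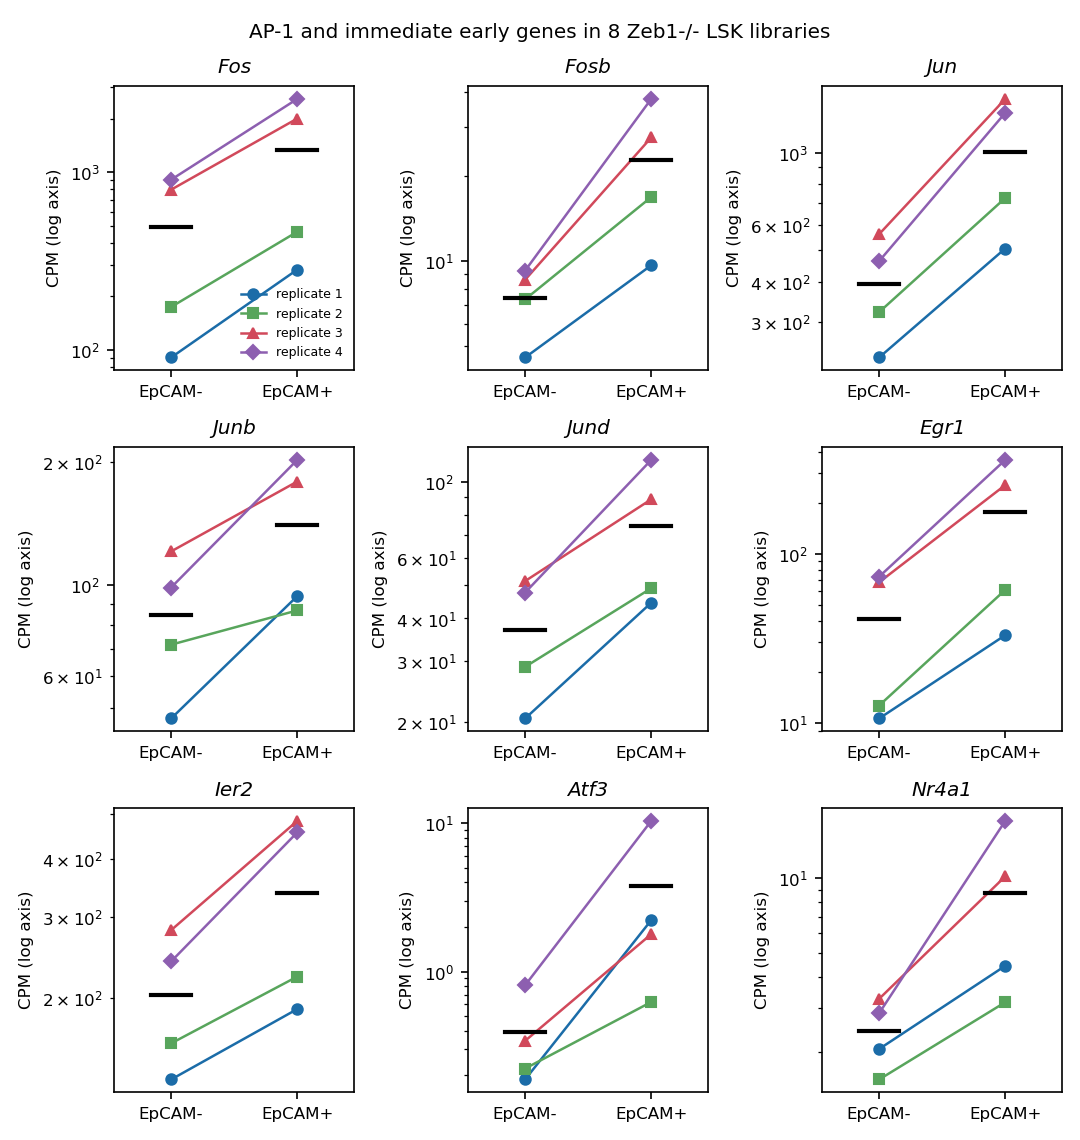
Level of each tested gene in CPM (logarithmic axis) in the EpCAM- and EpCAM+ libraries, with a line joining libraries of the same replicate number and a black bar at the mean of each fraction (n = 4). Every line goes up from EpCAM- to EpCAM+, and for *Fos* the EpCAM- libraries 3 and 4 (797 and 907 CPM) sit above the EpCAM+ libraries 1 and 2 (283 and 462 CPM).

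Of the FOS proteins, which cannot pair with each other and need a JUN partner, *Fos* was the more abundant by far. *Fos* (ENSMUSG00000021250, chromosome 12, 85473890 to 85477273, plus strand, up to 4 exons) was at 283, 462, 2004 and 2586 CPM in EpCAM+ replicates 1 to 4 and at 90.5, 174, 797 and 907 CPM in EpCAM- replicates 1 to 4. The fractions overlapped, since both high EpCAM- libraries exceeded both low EpCAM+ libraries. Within a fraction the highest library was 9.15 times (EpCAM+) and 10.02 times (EpCAM-) the lowest, while the ratio within a number stayed between 2.51 and 3.12. The log2 fold change was accordingly 1.44 ± 1.05 (SE, adjusted p = 0.311, edgeR) without the block and 1.47 ± 0.06 (adjusted p = 4.35e-07, edgeR) with it.

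*Fosb* (ENSMUSG00000003545, chromosome 7, 19302696 to 19310051, minus strand, up to 5 exons) was at 9.68, 16.9, 27.5 and 37.7 CPM in EpCAM+ libraries and 4.56, 7.33, 8.60 and 9.27 CPM in EpCAM- libraries. It was the only one of the 9 whose fractions did not overlap, a separation in this direction that 20.1% of all tested genes had. Its log2 fold change was 1.63 ± 0.43 (SE, adjusted p = 0.0184, edgeR) without the block and 1.53 ± 0.16 (adjusted p = 8.78e-05, edgeR) with it. The ratio within a number ran from 2.12 to 4.07 and was larger in numbers 3 and 4 than in 1 and 2.

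The JUN genes are short genes, *Jun* and *Jund* with a single exon, that encode the partners of FOS and can also form dimers among themselves. *Jun* (ENSMUSG00000052684, chromosome 4, 95049034 to 95052222, minus strand) was at 506, 724, 1465 and 1327 CPM in EpCAM+ libraries and 233, 322, 560 and 462 CPM in EpCAM- libraries. Only EpCAM+ replicate 1 fell inside the EpCAM- range. The log2 fold change was 1.35 ± 0.43 (SE, adjusted p = 0.0435, edgeR) without the block and 1.30 ± 0.07 (adjusted p = 2.88e-06, edgeR) with it. The ratio within a number was 2.17 to 2.87.

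*Junb* (chromosome 8, 84974484 to 84978718, minus strand), whose protein often opposes that of *Jun* and restrains the expansion of myeloid progenitors, was at 94.1, 86.8, 180 and 203 CPM in EpCAM+ libraries and 47.2, 71.6, 121 and 98.8 CPM in EpCAM- libraries. Its log2 fold change of 0.73 ± 0.41 (SE) did not pass without the block (adjusted p = 0.189, edgeR) and did with it (0.72 ± 0.14, adjusted p = 0.00549, edgeR). *Jund*, the JUN gene with the steadiest expression in most resting cells, lies on the same chromosome (70698949 to 70700616, plus strand). It was at 44.5, 49.0, 88.9 and 116 CPM in EpCAM+ libraries and 20.5, 28.9, 51.4 and 47.6 CPM in EpCAM- libraries. Its log2 fold change was 1.01 ± 0.43 (SE, adjusted p = 0.104, edgeR) without the block and 0.99 ± 0.10 (adjusted p = 5.71e-05, edgeR) with it. All 3 JUN genes overlap exons of a gene on the other strand (*Junos*, *Prdx2* and *Gm11175*), and the counting is not stated to use strand, so reads of the partners cannot be told apart in the overlaps of 232, 173 and 877 bases.

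*Atf3*, a stress-induced partner of JUN that mostly represses transcription, was the rarest of the 9 and had the largest fitted difference. *Atf3* (ENSMUSG00000026628, chromosome 1, 191170296 to 191218039, minus strand, up to 5 exons) was at 2.22, 0.624, 1.79 and 10.4 CPM in EpCAM+ libraries, from 34, 11, 32 and 160 reads. In EpCAM- libraries it was at 0.187, 0.222, 0.341 and 0.809 CPM, from 3, 3, 5 and 11 reads. EpCAM+ replicate 4 stood far above the other EpCAM+ libraries, and EpCAM+ replicate 2 lay below EpCAM- replicate 4. The fitted log2 fold change was 3.25 ± 0.96 (SE, adjusted p = 0.0257, edgeR) without the block and 3.03 ± 0.40 (adjusted p = 2.70e-04, edgeR) with it. The ratio within number 2 was 2.81 with an exact 95% binomial interval of 0.742 to 15.7, and that within number 1 was 11.9 (3.73 to 60.4). Both intervals cover counting error only.

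The zinc finger genes *Egr1* and *Egr3* encode transcription factors that bind GC-rich sites, and EGR1 is known to hold hematopoietic stem cells in quiescence. *Egr1* (ENSMUSG00000038418) was at 33.1, 61.2, 254 and 357 CPM in EpCAM+ libraries and 10.7, 12.7, 67.8 and 73.2 CPM in EpCAM- libraries. As with *Fos*, EpCAM- libraries 3 and 4 were above EpCAM+ libraries 1 and 2, and the highest EpCAM+ library was 10.8 times the lowest. The ratio within a number was 3.10 to 4.88. The log2 fold change was 2.10 ± 1.04 (SE, adjusted p = 0.153, edgeR) without the block and 2.04 ± 0.11 (adjusted p = 9.60e-06, edgeR) with it. *Egr3* (chromosome 14, 70077203 to 70082614, plus strand) had 2, 0, 3 and 7 reads in EpCAM+ replicates 1 to 4 and 0 reads in every EpCAM- library, which allows up to 3 reads in each.

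*Nr4a1* (chromosome 15, 101254269 to 101274795, plus strand, up to 8 exons) encodes NUR77, an orphan nuclear receptor induced by antigen receptor and growth factor signals that limits the proliferation of HSPCs. It was at 4.45, 3.18, 10.2 and 16.99 CPM in EpCAM+ libraries and 2.06, 1.55, 3.28 and 2.87 CPM in EpCAM- libraries. The fractions overlapped only by EpCAM+ replicate 2 and EpCAM- replicate 3. The log2 fold change was 1.83 ± 0.54 (SE, adjusted p = 0.0239, edgeR) without the block and 1.65 ± 0.27 (adjusted p = 8.67e-04, edgeR) with it. The ratio within a number ran from 2.04 in number 2 to 5.92 in number 4.

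*Ier2* (chromosome 8, 84661331 to 84662852, minus strand, a single exon) encodes a small nuclear protein of the immediate early response and lies 311631 bases from *Junb*. It was at 189, 222, 484 and 457 CPM in EpCAM+ libraries and 133, 159, 281 and 240 CPM in EpCAM- libraries. The difference was among the smallest of the 9, with ratios within a number of 1.40 to 1.90. Its log2 fold change was 0.73 ± 0.41 (SE, adjusted p = 0.189, edgeR) without the block and 0.68 ± 0.08 (adjusted p = 1.76e-04, edgeR) with it.

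**Figure D2:**
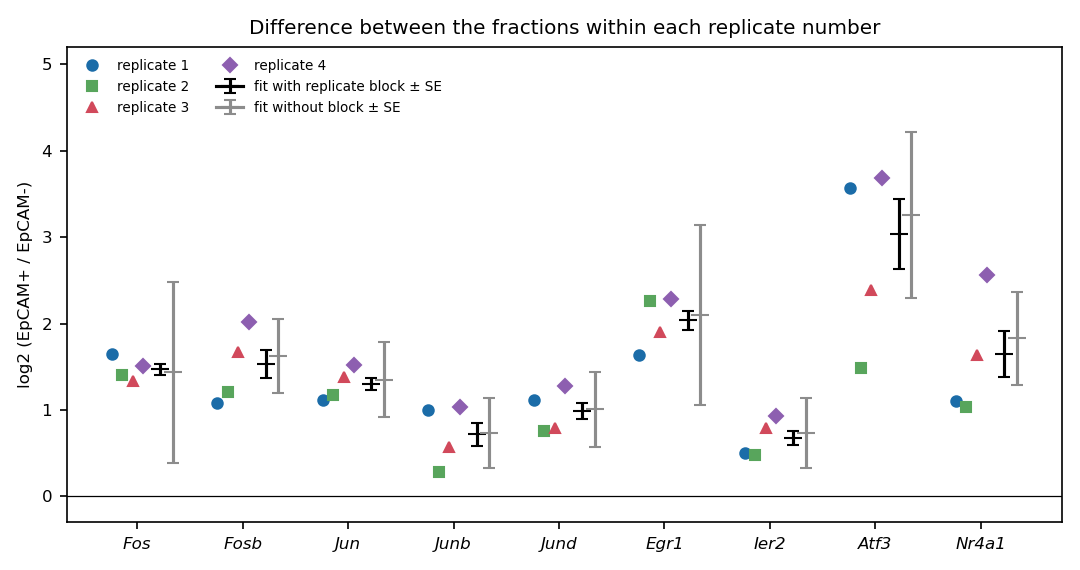
Log2 ratio of CPM in the EpCAM+ over the EpCAM- library of the same replicate number (colored points) for each gene, with the fitted log2 fold change ± SE with the replicate block (black) and without it (gray). All points lie above 0, and the SE of *Fos* falls from 1.05 without the block to 0.06 with it.

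The share of variance that followed the replicate number differed between the genes. For *Fos*, 77.9% of the variance of log2 CPM over the 8 libraries followed the number, 21.9% the fraction and 0.139% neither. *Ier2* (68.5% number), *Egr1* (63.8%), *Junb* (62.3%) and *Jund* (54.1%) followed the number more than the fraction, while *Fosb* (34.8% number, 61.3% fraction), *Jun*, *Atf3* and *Nr4a1* followed the fraction more. These last 4 are the genes called without the block. The median over all tested genes was 28.6% for the number and 48.6% for the fraction.

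**Figure D3:**
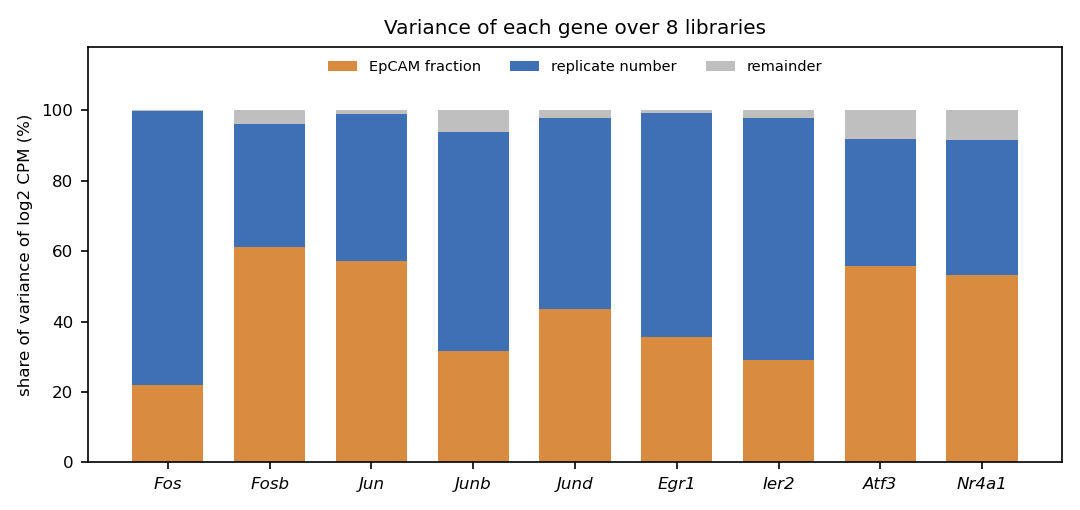
Share of the variance of log2 CPM over 8 libraries (in %) that followed the EpCAM fraction, the replicate number and neither, as stacked bars for each gene. The share of the replicate number is largest for *Fos* (77.9%) and smallest for *Fosb* (34.8%).

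In a test of the replicate number itself, chosen after these values were seen, 7 of the 9 genes passed at an adjusted p under 0.05 (edgeR), all but *Junb* (adjusted p = 0.0639) and *Nr4a1* (adjusted p = 0.0759), against 2.23% of all tested genes. The adjusted p was 1.92e-07 for *Fos* and 8.30e-05 for *Egr1*. The libraries differ by number in other ways too. The summed level of 7 erythroid markers was 2024, 2292, 5082 and 6887 CPM in EpCAM- replicates 1 to 4 and 95.3, 89.8, 128 and 271 CPM in EpCAM+ replicates 1 to 4, so it was also higher in numbers 3 and 4 in both fractions. The summed level of 10 LSK and stem cell markers was 2174, 2243, 1734 and 1441 CPM in EpCAM- libraries, lower in numbers 3 and 4, and 2606 to 2782 CPM in EpCAM+ libraries. Their part in the difference between numbers was not tested.

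Markers of other cells moved with the fractions. Among all tested genes, 21.6% were higher and 20.8% lower in EpCAM+ cells (25.5% and 25% with the block). Of 7 tested conventional dendritic cell markers, 6 were higher in EpCAM+ cells and 0 lower (edgeR, 6 and 0 with the block as well), and the summed level of the 8 listed was 14703, 1121, 3847 and 15236 CPM in EpCAM+ replicates 1 to 4 against 125 to 398 CPM in EpCAM- libraries. Of 4 tested plasma cell markers, 2 were higher, with sums of 3961, 449, 668 and 385 CPM against 169 to 256 CPM. Of 4 tested B cell markers, *Ms4a1* was higher (1.19 to 12.8 CPM against 0 to 0.137 CPM), with sums of 75.8 to 125 CPM against 48.6 to 82.5 CPM and *Pax5* at 0 in every library. Both tested T cell markers, *Lck* (log2 fold change 1.34 ± 0.15, SE) and *Cd4* (1.01 ± 0.36), were higher, with sums of 53.0 to 67.0 CPM against 17.1 to 29.1 CPM, although *Cd3e* had 1 read in all. Of 7 tested neutrophil markers, the early granulocyte genes *Elane* and *Mpo* were lower in EpCAM+ cells, and the later genes *S100a8*, *S100a9*, *Ngp*, *Camp* and *Ltf* were not called. Erythroid (6 of 7 tested), mast cell and basophil (3 of 5) and monocyte and macrophage markers (3 of 6, with 1 higher) were also lower in EpCAM+ cells. Plasmacytoid dendritic cell (2 of 4) and megakaryocyte markers (2 of 6) were higher. So were the 3 tested of 7 epithelial and stromal markers, the epithelial *Krt8*, *Krt18* and *Cdh1*. *Cxcl12* (4 reads in EpCAM+ against 35 in EpCAM- libraries), *Lepr* (0 against 7), *Cdh5* and *Col1a1* were too rare to be tested. The 1 tested natural killer cell marker, *Nkg7*, was not called, at 631 to 883 CPM throughout. Of those too rare for edgeR, *Ncr1* (53 against 0 reads) and *Klrd1* (113 against 19) were higher in DESeq2 (adjusted p = 2.80e-04 and 0.00367). *Klrb1c* and *Prf1* were not called there. The stem cell markers were also on the EpCAM+ side: 8 of 10 were higher (7 with the block), including *Mecom* (2.38 ± 0.46), *Procr* (2.36 ± 0.57), *Ly6a* (2.28 ± 0.67) and *Hlf* (1.91 ± 0.24).

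Set beside the dendritic cell sums, the ratios of the 9 AP-1 and immediate early genes within a number were as follows. In number 2, where the EpCAM+ sum was lowest, they ran from 1.21 (*Junb*) to 4.81 (*Egr1*), and 5 of the 9 genes (*Junb*, *Jund*, *Ier2*, *Atf3* and *Nr4a1*) had their lowest ratio there. The ratios of 3 genes had the same order as the EpCAM+ sums. These were *Atf3* (11.9, 2.81, 5.24 and 12.8 in numbers 1 to 4), *Junb* (1.99, 1.21, 1.48 and 2.05) and *Jund* (2.17, 1.69, 1.73 and 2.43). *Ier2* and *Nr4a1* had another order, *Fosb*, *Jun* and *Egr1* had their lowest ratio in number 1 and *Fos* in number 3. The sums consist mostly of *Cd74* (7586, 520, 1987 and 8006 CPM in EpCAM+ replicates 1 to 4), *H2-Ab1* and *H2-Aa*. *Xcr1* (147, 11.5, 35.8 and 131 CPM), *Clec9a* (27.5, 1.25, 5.14 and 26.3 CPM) and *Itgax* (14.2, 1.42, 4.69 and 11.9 CPM) were highest in number 1. The order of *Atf3*, *Junb* and *Jund* thus matched the sums but not these markers. The part of these other cells in the difference between the fractions was not tested.

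Compared per kilobase of the deposited gene length, the genes spanned a wide range of levels. In EpCAM+ cells the order of mean RPKM (CPM per kilobase) was *Fos* 567 ± 484 (SD, n = 4), *Jun* 315 ± 145, *Ier2* 222 ± 101, *Junb* 61.2 ± 25.6, *Jund* 44.7 ± 20.3, *Egr1* 39.3 ± 34.7, *Fosb* 3.67 ± 1.96, *Nr4a1* 2.48 ± 1.80, *Atf3* 1.74 ± 2.07 and *Egr3* 0.0427 ± 0.0434. *Fos* was above *Jun*, and *Jund* above *Egr1*, in only 2 of 4 EpCAM+ libraries, so neither pair is ordered beyond its spread, and the authors' FPKM put *Egr1* ahead of *Jund*. The FPKM rest on other lengths than the length column for some genes: their EpCAM+ mean was 1248 for *Fos* and 5.65 for *Nr4a1*, against 324 for *Jun*, which is close to its RPKM, so distances between genes depend on the length used. In EpCAM- cells *Fos* (209 ± 178 RPKM) and *Ier2* (134 ± 45.1) led and were ordered in 2 of 4 libraries, followed by *Jun* (124 ± 45.6) and then the same sequence of genes as in EpCAM+ cells. All other neighbors kept their order in 4 of 4 libraries of each fraction.

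Among 12 tested relatives of the AP-1 proteins, 4 were higher in EpCAM+ cells and 0 lower (edgeR, adjusted p under 0.05, with 5 and 2 at an unadjusted p under 0.05 and 4 and 0 in DESeq2), with a median log2 fold change of 0.31. The share called, 33.3%, was below the 42.4% of all tested genes. With the block 6 were higher and 2 lower (66.7% called, against 50.5%), and without EpCAM- replicate 3 or EpCAM- replicate 4 only 2 were called. *Batf3*, a factor of dendritic cell development, was at 18.6, 1.02, 2.96 and 13.6 CPM in EpCAM+ libraries, high in the same 2 libraries as the dendritic cell markers, and at up to 0.662 CPM in EpCAM- libraries (adjusted p = 0.0202). *Batf2* (log2 fold change 1.64 ± 0.36, SE), *Batf* (0.48 ± 0.14) and *Maf* (0.915 to 1.69 against 0 to 0.205 CPM) were the others. The direct paralogs of *Fos* were rare, *Fosl1* at 0.148 to 1.69 CPM and *Fosl2* at 1.47 to 4.97 CPM, and passed with the block (adjusted p = 0.0440 and 0.0177, edgeR) but not without it (0.126 and 0.0616). *Fosl1* did not pass in DESeq2 with the block (adjusted p = 0.167), nor did *Fosl2* (0.0504).

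Of 24 tested genes of other rapid-response regulators, 10 were higher (41.7%, against 21.6% of all tested genes), 1 was lower and the median log2 fold change was 0.64. The 4 with the smallest adjusted p were *Sertad1* (log2 fold change 0.66 ± 0.09, SE), *Bhlhe40* (2.78 ± 0.45), *Trib1* (1.65 ± 0.29) and *Csrnp1* (1.02 ± 0.19), and none of these had a replicate-number term that passed. The one lower gene was *Myc* (-0.40 ± 0.12, adjusted p = 0.0210). *Klf2* and *Klf6*, which restrain proliferation and were picked out after their values were seen, behaved like *Fos*: *Klf2* was at 25.3, 22.2, 63.6 and 160 CPM in EpCAM+ libraries and 7.43, 8.21, 26.5 and 43.3 CPM in EpCAM- libraries, and passed only with the block (adjusted p = 1.30e-05, against 0.185 without, edgeR). The nearest relatives of the EGR and NR4A genes were hardly expressed, with 17 against 10 reads in all for *Egr2*, 4 against 3 for *Egr4* and 17 against 3 for *Nr4a3* in EpCAM+ against EpCAM- libraries, and *Nr4a2* was not called (log2 fold change -0.08 ± 0.28, adjusted p = 0.830; with the block, 0.618).

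Genes that shut the response off again were measured next: phosphatases of MAP kinases, factors that degrade AU-rich mRNAs such as that of *Fos*, and corepressors of EGR proteins. Of 21 tested, 12 were higher (57.1%, against 21.6% of all tested genes) and 1 lower, with a median log2 fold change of 0.83, and 15 were higher and 1 lower with the block. The smallest adjusted p values were those of *Nab2*, the corepressor of EGR1 (log2 fold change 1.21 ± 0.15, SE), *Zfp36l2* (0.73 ± 0.11), *Dusp4* (2.88 ± 0.53) and *Dusp10* (1.17 ± 0.25), whose replicate-number terms did not pass. *Dusp1*, the phosphatase induced together with *Fos* and picked out after its values were seen, was at 174, 302, 810 and 1070 CPM in EpCAM+ libraries and 71.9, 121, 334 and 431 CPM in EpCAM- libraries. Its ratio within a number was 2.42 to 2.49, and it passed with the block (1.30 ± 0.05, adjusted p = 2.33e-07, edgeR) and not without (adjusted p = 0.243). *Zfp36*, which encodes the mRNA decay factor tristetraprolin, likewise had an adjusted p of 2.32e-04 with the block and 0.112 without it (edgeR).

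Genes that act upstream were counted in both directions. Of 21 tested genes for SRF, its cofactors and CREB regulators, 7 were higher (33.3%) and 5 lower (23.8%), with *Mapkapk3* (log2 fold change -0.78 ± 0.07, SE) and *Mapkapk2* (-0.71 ± 0.08), kinases downstream of p38, among the lower and the SRF coactivator *Mkl2* (0.98 ± 0.15) and the CREB coactivator *Crtc1* (0.53 ± 0.10) among the higher. Of 20 tested genes of the MAP kinase cascade, 4 were higher and 4 lower (20% each, near the 21.6% and 20.8% of all tested genes), including *Mapk13* (2.45 ± 0.32), *Map3k8* (1.64 ± 0.27) and *Mapk11* (1.33 ± 0.25) on one side and *Map2k2* (-0.39 ± 0.07) on the other. The replicate-number term passed for 1 of the first 21 and 0 of the second 20 genes (edgeR, 4 and 5 at an unadjusted p under 0.05), against 7 of the 9 AP-1 and immediate early genes. That term also passed for 5 of the 24 rapid-response, 5 of the 21 feedback and 1 of the 12 AP-1 relative genes. It passed as well for 5 of the 10 activation genes that follow, against 2.23% of all tested genes. Of 10 tested activation genes that take AP-1 or EGR input, 0 passed without the block in edgeR (against 42.4% of all tested genes), 0 at an unadjusted p under 0.05 and 0 in DESeq2. With the block 3 passed (*Tnf*, *Hmox1* and *Ccl4*), all higher. That is 30%, below the 50.5% of all tested genes called with the block and near the 25.5% that were higher. Without EpCAM+ replicate 2, 2 of the 10 were called.

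Heat shock genes encode chaperones that respond to protein damage. Of 13 tested, 30.8% were called, against 42.4% of all tested genes: 1 was higher (*Hsf2*, log2 fold change 0.74 ± 0.23, SE) and 3 were lower (*Hsp90aa1*, -0.49 ± 0.11, *Hsf1*, -0.22 ± 0.06, and *Hsp90ab1*, -0.26 ± 0.09), and the count fell to 1 without EpCAM+ replicate 3 or EpCAM- replicate 3 and to 2 without EpCAM+ replicate 2. Their replicate-number term passed in 6 of 13 genes, but numbers 3 and 4 were not jointly high. The summed level was 13327, 11869, 10998 and 8369 CPM in EpCAM+ replicates 1 to 4 and 14840, 14324, 13347 and 11012 CPM in EpCAM- replicates 1 to 4, lowest in number 4 in both fractions. In number 4, *Fos*, *Fosb*, *Junb*, *Jund*, *Egr1*, *Atf3* and *Nr4a1* were at their EpCAM+ maximum, while *Jun* and *Ier2* were at theirs in number 3. Among EpCAM- libraries, *Fos*, *Fosb*, *Egr1* and *Atf3* were highest in number 4 and *Jun*, *Junb*, *Jund*, *Ier2* and *Nr4a1* in number 3. What the replicate number stands for is not stated, and its part in these levels was not tested beyond the terms given.

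**Figure D4:**
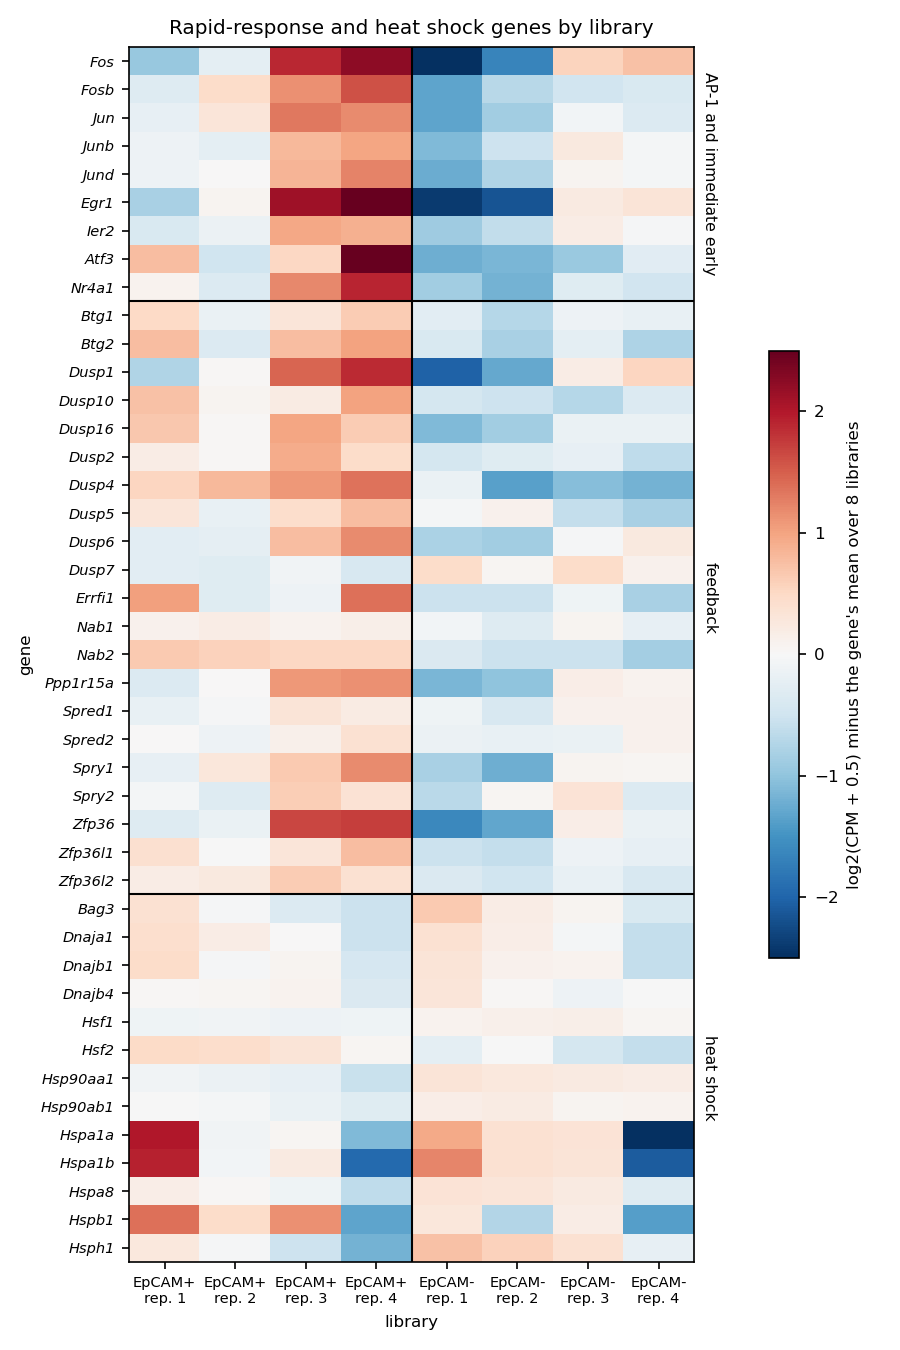
Log2(CPM + 0.5) of the 9 tested AP-1 and immediate early genes, 21 feedback genes and 13 heat shock genes (rows) in 8 libraries (columns), as the difference from each gene's mean, red for higher and blue for lower, with colors saturating at 2.5. EpCAM+ libraries 3 and 4 are red for all 9 top genes and for *Dusp1*, *Zfp36* and *Ppp1r15a*, whereas *Hspa1a* and *Hspa1b* are red in libraries 1 and blue in libraries 4 of both fractions.

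Deviations from the fraction means followed one pattern in most of the 9 genes. The correlation of each gene with the mean of the 9, over 8 libraries and including the gene itself, ranged from 0.727 for *Atf3* to 0.991 for *Jund*. Outside the lists used here, the genes most like that mean among 13364 ranked were *Cnbd2* (r = 0.995), *Mta1* (0.988), *Myom1* (0.987), *Uri1* (0.986) and *Slc25a20* (0.982). These correlations share libraries and scaling and are a description. With the block, *Mta1* (adjusted p = 0.835, edgeR) and *Myom1* (0.116) were not called between the fractions, unlike all 9 AP-1 and immediate early genes. *Cnbd2* (adjusted p = 0.0123, edgeR) and *Slc25a20* (0.0124) were called higher in EpCAM+ cells and *Uri1* (0.00914) lower.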

How the data were processed

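RNA from EpCAM+ and EpCAM- *Zeb1*-/- LSK cells was amplified with SMART-Seq v4 and sequenced as paired ends by the study. The authors trimmed the reads, aligned them to GRCm38.p6 with STAR 2.6.1d, counted reads per gene with featureCounts 1.5.0-p3 and deposited whole-number counts for 8 libraries, which all tests here use. The same table holds FPKM that the authors computed from gene length and counts, used here only to check the order of genes, and the authors' own DESeq2 (1.20.0) comparisons, whose log2 fold changes and p-values were not used. The annotation release and strand setting are not given in the sources used here, but the coordinates of the 10 genes equal GENCODE M21.

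Counts were analysed in R 4.3.3 with edgeR 4.0.16 (filterByExpr, TMM, robust quasi-likelihood test, two-sided, Benjamini-Hochberg adjustment over 13560 tested genes, threshold 0.05). CPM (counts-per-million) use TMM-scaled totals, with a prior count of 2 on the log2 scale. RPKM divided CPM by the deposited gene length. The genes and lists were chosen with earlier results of these data known. The text names *Epcam*, *Zeb1*, all 10 genes, their paralogs, the up to 4 lowest adjusted p values per list, markers, and the 5 genes most like the mean deviation. *Klf2*, *Klf6*, *Dusp1*, *Zfp36*, *Ppp1r15a*, *Hspa1a*, *Hspa1b*, *Myc*, *Tnf*, *Hmox1* and *Ccl4* were picked after their values were seen. Alternatives were DESeq2 1.42.0, limma-voom (limma 3.58.1), other scalings and filters, leaving out each library, and the replicate block. Figures used matplotlib 3.10.9.

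The labels give both fractions the replicate numbers 1 to 4. After subtraction of the fraction mean, log2 CPM of same-numbered libraries correlated at 0.205 to 0.356 over genes (4 pairs, genes not being independent), against -0.216 to 0.0396 for the other 12 pairs across fractions, so the numbers pair the samples, although what a number shares is not stated. No 2 libraries of a fraction were duplicates (chi-square per degree of freedom 10.6 to 101). Read counts lack molecular identifiers, and intervals cover counting error only.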

Additional observations from a re-analysis of the deposited data

Results flagged for a closer look

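*Atf3* in EpCAM+ replicate 4 stood apart from the other EpCAM+ libraries, at 10.4 CPM against 0.624, 1.79 and 2.22 CPM. Its gap to the next library was 0.836 of the range of the fraction, above Dixon's critical value at the 95% level for 4 samples. This was 1 of 19 groups of 4 libraries checked, and chance alone flags about 1 group in 20. Without that library the log2 fold change of *Atf3* was 1.97 ± 0.58 (SE, adjusted p = 0.0227, edgeR).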

How the results depend on the processing

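One limit is the spread between numbered libraries within a fraction of 4, up to 10.02-fold in *Fos*, 10.8-fold in *Egr1* and 16.6-fold in *Atf3*. The fold change of every tested AP-1 and immediate early gene kept its direction under all alternatives run. The number called higher was 9 with the replicate block, with DESeq2 and the block, and with the block and the 2 libraries of any number left out. It was 3 with limma-voom (*Fosb*, *Jun* and *Jund*) and 1 (*Egr3*, from 12 reads) when genes with 1 count in any library were kept, and ranged from 1 to 4 with 1 library left out. Of the single-gene results under other tests, scalings and filters, 64 kept their side of the threshold, 6 lost it and 1 gained it. With the block, 8 AP-1 relatives, 7 heat shock genes and 3 activation genes were called. With the block and without number 2, these counts were 7, 7 and 5. The activation genes numbered 2, 1 and 1 without numbers 1, 3 and 4, and 2 with DESeq2 and the block, and the heat shock genes numbered 7 without number 4. With 1 library left out, the called genes ranged from 2 to 6 (AP-1 relatives), 1 to 4 (heat shock) and 0 to 2 (activation). Scaling by upper quartiles or library totals called 2 heat shock genes, and moved the median log2 fold change of all genes to 0.11 and the higher share of calls to 63.5% and 62.7%, from 50.9%, with medians of 1.54 and 1.53 for the 9 genes.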
